A study of Mus musculus with 12 samples.

Results

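The glutathione S-transferases described here were members of the alpha (Gsta2, Gsta3 and Gsta4), theta (Gstt1, Gstt2 and Gstt3), pi (Gstp1) and omega (Gsto1) classes together with the microsomal enzymes Mgst1 and Mgst3. They were chosen by name, as every probe set annotated to that gene symbol alone, and made up 10 of the 5856 genes with a single symbol in the table, on 12 of its 8554 single-symbol probe sets. The RNA came from the livers of C57BL/6 males aged 8 weeks and was hybridized to 12 Affymetrix mouse genome arrays, 1 mouse per array and 3 mice per genotype. Nrf2-null mice lack the transcription factor Nrf2 (gene Nfe2l2), and wild-type mice carry both genes intact. Keap1-KD (knockdown) mice have lowered Keap1, the repressor of Nrf2, in the whole body. Keap1-HKO (hepatocyte knockout) mice were bred from Keap1-KD mice and AlbCre+ mice, whose Cre recombinase is driven by the albumin promoter in hepatocytes. They therefore carried the Keap1-KD allele too, and in their other liver cells Keap1 was lowered rather than deleted. The comparisons ask which of these transferases depend on Nrf2 for their basal mRNA and which are induced when it is activated in graded steps.

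Glutathione S-transferases join the tripeptide glutathione to electrophiles, among them drug metabolites and the aldehydes made by lipid peroxidation, and so make them water-soluble and ready for export. The alpha, theta, pi and omega classes are cytosolic, whereas the microsomal transferases are unrelated integral membrane proteins that carry out the same reaction. Keap1 marks Nrf2 for degradation. When Nrf2 escapes it, Nrf2 binds antioxidant response elements in DNA with a small Maf partner and raises transcription of many conjugating and antioxidant enzymes.

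The targeted genes followed the labels. Means under the study's detection floor, an intensity of 100 or 6.64 on the log2 scale, were counted as the floor, so that the folds of these 3 genes are bounds. In Nrf2-null livers, Nfe2l2 mRNA was lower than in wild-type livers by at least 4.76-fold (limma adjusted p = 1.21e-08), with a mean of 2.35 on the log2 scale against 8.90. Nfe2l2 was also called lower in Keap1-HKO livers, with a mean of 8.19 and a difference of -0.70 (limma adjusted p = 0.0480). Keap1 mRNA was lower than in wild-type livers by at least 2.33-fold with the knockdown and with the hepatocyte knockout (limma adjusted p = 0.000179 and 2.98e-08), with means of 5.70 and 3.36 against 7.86. Nqo1, a quinone reductase widely used as a readout of Nrf2, had means of 4.71, 6.80 and 9.99 in wild-type, Keap1-KD and Keap1-HKO mice (limma adjusted p = 0.0373 and 2.61e-06 against wild-type), at least 10.2-fold higher in the last. All 8 hepatocyte markers were measured and none was called in any comparison. Some arrays stood apart. Of 11 pancreas acinar markers 8 were measured, and their median was 13.57 (log2) in Keap1-HKO replicate 2 and 10.35 in Keap1-HKO replicate 3 but between 2.43 and 3.32 on the other 10 arrays. Of 9 skeletal muscle markers 6 were measured, and their median was 11.67 in wild-type replicate 2, 12.05 and 10.41 in Keap1-HKO replicates 2 and 3, and at most 2.87 elsewhere. Keap1-HKO replicate 1 and Nrf2-null replicate 1 deviated most from the other arrays of their genotype, by a mean of 0.785 and 0.487 per gene from the genotype's median against at most 0.177 for the other arrays. In whole liver, fewer cells of a type and less RNA per cell cannot be told apart.

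The sequences just before the transcription start are shown for some of the transferases only. Gsta2 and Mgst3 were called higher in Keap1-HKO mice, and Gsta3, Mgst1 and Gstp1 were not. Each run is the 250 bases upstream of a start annotated by RefSeq on GRCm38.p6, 5′ to 3′ on the gene's strand. Capitals mark matches, on either strand, to TGANNNNGC, a widened form of the antioxidant response element core TGACNNNGC that was chosen after the sequences were seen and that includes every core match.
Gsta2, chr9:78347146-78347395, minus strand: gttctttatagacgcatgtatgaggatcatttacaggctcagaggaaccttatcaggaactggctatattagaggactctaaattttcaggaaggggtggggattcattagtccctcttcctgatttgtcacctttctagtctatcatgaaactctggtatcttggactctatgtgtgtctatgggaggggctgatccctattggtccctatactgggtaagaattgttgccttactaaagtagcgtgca
Mgst3, chr1:167393842-167394091, minus strand: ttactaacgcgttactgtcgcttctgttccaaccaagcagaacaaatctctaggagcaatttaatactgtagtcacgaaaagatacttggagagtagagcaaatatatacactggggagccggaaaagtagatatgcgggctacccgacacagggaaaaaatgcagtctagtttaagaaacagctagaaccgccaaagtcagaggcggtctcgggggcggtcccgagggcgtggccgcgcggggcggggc
Gsta3, chr1:21240335-21240584, plus strand: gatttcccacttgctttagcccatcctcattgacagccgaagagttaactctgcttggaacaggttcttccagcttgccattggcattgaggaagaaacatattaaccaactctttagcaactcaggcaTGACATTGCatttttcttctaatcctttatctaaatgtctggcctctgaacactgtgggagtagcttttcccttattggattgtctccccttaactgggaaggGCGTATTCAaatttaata
Mgst1, chr6:138140277-138140526, plus strand: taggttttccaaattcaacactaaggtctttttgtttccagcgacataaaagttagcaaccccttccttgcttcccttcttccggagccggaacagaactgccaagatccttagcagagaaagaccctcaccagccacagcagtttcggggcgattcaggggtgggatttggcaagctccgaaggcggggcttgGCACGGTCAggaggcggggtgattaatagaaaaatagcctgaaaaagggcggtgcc
Gstp1, chr19:4037913-4038162, minus strand: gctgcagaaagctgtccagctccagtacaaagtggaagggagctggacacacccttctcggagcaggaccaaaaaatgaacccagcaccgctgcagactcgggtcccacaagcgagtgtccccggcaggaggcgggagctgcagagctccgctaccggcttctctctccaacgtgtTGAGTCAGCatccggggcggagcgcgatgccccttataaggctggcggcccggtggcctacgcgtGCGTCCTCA
The core was found in the Gsta3 window as TGACATTGC and in the Mgst1 window, on the opposite strand, as TGACCGTGC, so in 2 of the 8 members that had a window. It was present in 12.4% of the 32851 mouse promoter windows searched, each reaching 50 bases past the start. The wider form was found in 5 of the 8 (Gsta3, Gstp1, Gstt1, Gstt3 and Mgst1) against 41.3% of all windows. Gstp1 carried it as TGAGTCAGC, from position -74 to -66 counted from its start. It also held TGAGGACGC on the opposite strand, from -9 to -1, and TGAATCCGC past the start, from 29 to 37. Neither form was in the window of Gsta2, Gsto1 or Mgst3, nor in a second Mgst1 window from another annotated start. Gsto1, whose window is not printed, was not called higher in Keap1-HKO mice. The paper searched much further upstream and lists core matches there for Mgst3 and none for Gsta2. Gsta4 and Gstt2 had no window. A match is a description of letters, and its absence says only that these letters are not in this window.

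Gsta2 had the widest range over the 12 livers among these 10 transferases, 5.71 log2 units. It is an alpha-class enzyme with peroxidase activity toward lipid hydroperoxides. Its log2 intensity was 9.49, 9.76 and 9.63 in the 3 Nrf2-null livers and 12.86, 11.41 and 12.50 in the wild-type livers. It was 14.50, 13.32 and 13.40 in Keap1-KD and 15.19, 14.88 and 15.20 in Keap1-HKO livers. The 4 genotypes did not overlap at any step, and wild-type replicate 2 was the lowest wild-type liver. On the linear scale, Gsta2 mRNA decreased by 85.1 ± 0.809% (SEM, n = 3) from the wild-type mean in Nrf2-null mice. It was 177.0 ± 78.8% higher in Keap1-KD mice and 559.4 ± 45.9% higher in Keap1-HKO mice. Each SEM is that of the named genotype alone, as a percentage of the wild-type mean, and that of the wild-type livers was 25.9%. In the fit across all genes Gsta2 fell by 2.63 ± 0.38 (SE) on the log2 scale in Nrf2-null mice (limma adjusted p = 0.0129). Leaving out Nrf2-null replicate 1, Nrf2-null replicate 3, wild-type replicate 1 or wild-type replicate 3 ended that call (limma adjusted p = 0.0620, 0.0654, 0.0644 and 0.0870), with differences between -2.63 and -2.33. The call held in 8 of 12 fits with 1 array left out. Without wild-type replicate 2 the difference was -3.05 (limma adjusted p = 0.00472). Over all arrays, the methods' Duncan's multiple range test called the Nrf2-null difference on log2 values but not on un-logged values, where the log2 ratio of the means was -2.75. In Keap1-HKO mice Gsta2 rose by 2.83 ± 0.38 (limma adjusted p = 0.00287), a fold of 7.13 with a 95% interval on the log2 scale from 1.98 to 3.68. In Keap1-KD mice the difference was 1.48 ± 0.38 and did not pass the test (limma adjusted p = 0.784), nor did the 1.35 ± 0.38 between Keap1-HKO and Keap1-KD mice (limma adjusted p = 0.155). At its nearest, the Gsta2 signal lay 1.36 log2 units under the highest value on its array, and compression near the top of the scale was not tested. Gsta2 and Gsta1 are closely related in sequence, and a further probe set listing both with Gm3776 was left out, so the signal was not assigned to Gsta2 beyond the annotation.

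**Figure D1:**
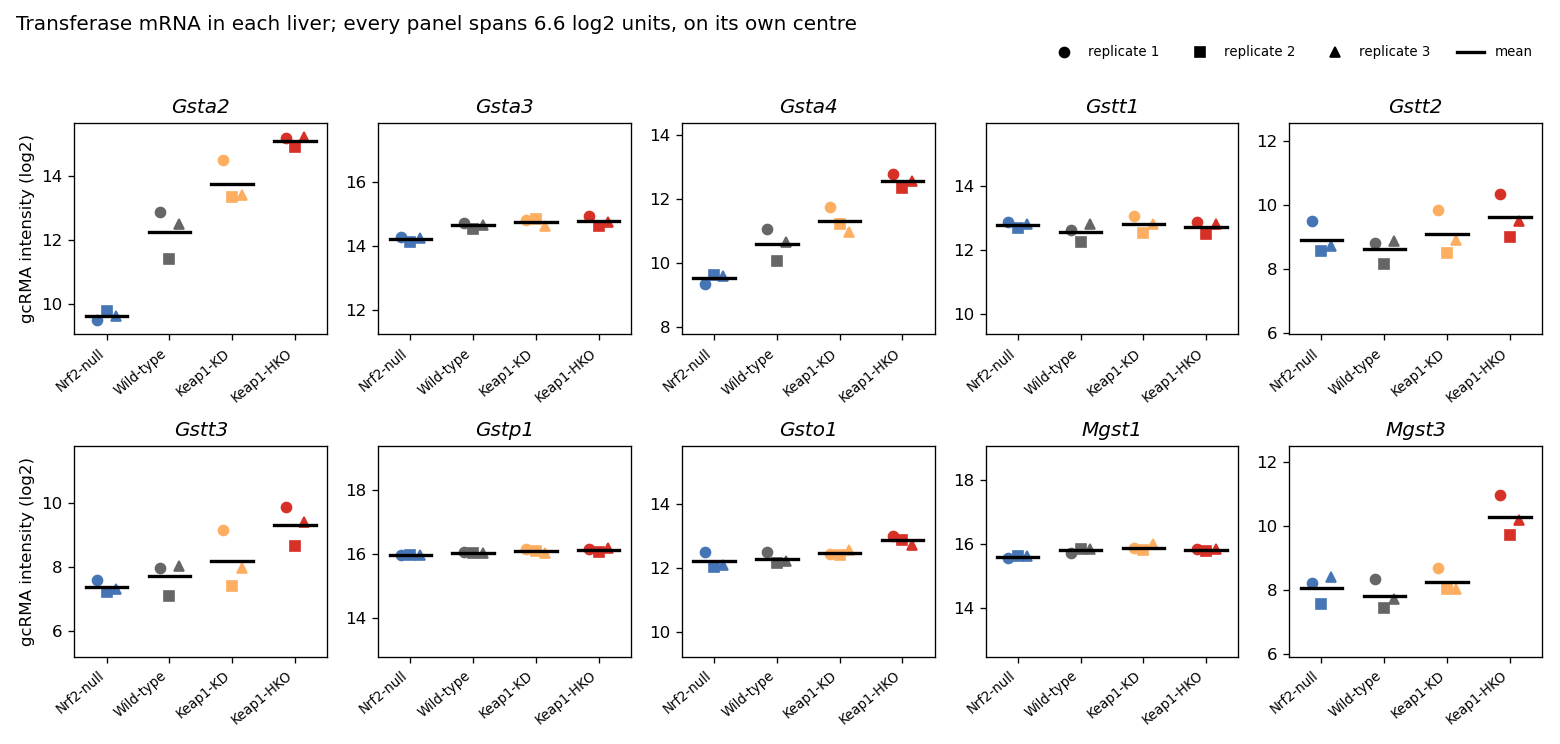
Log2 gcRMA intensity of each transferase in every liver by genotype; symbols are the 3 replicates, bars the means, and all panels have the same span but their own centre, so that heights may be compared within a panel only. Gsta2 climbed through all 4 genotypes without overlap, Mgst3 stood higher in the Keap1-HKO livers alone, and Gstp1 and Mgst1 stayed within 0.239 and 0.433 log2 units over the 12 livers.

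Gsta4 is the alpha-class enzyme best known for conjugating 4-hydroxynonenal, an aldehyde of lipid peroxidation. Its log2 intensity was 9.36, 9.62 and 9.60 in Nrf2-null, 11.06, 10.07 and 10.66 in wild-type, 11.73, 11.21 and 10.97 in Keap1-KD and 12.78, 12.34 and 12.56 in Keap1-HKO livers. The Nrf2-null livers lay below and the Keap1-HKO livers above all others, while the wild-type and Keap1-KD livers overlapped. Gsta4 rose by 1.97 ± 0.26 (SE) on the log2 scale in Keap1-HKO mice, or 3.90-fold (limma adjusted p = 0.00287). The difference of -1.07 ± 0.26 in Nrf2-null mice did not pass the test across all genes (limma adjusted p = 0.212), although Duncan's test called it on log2 values, nor did that of 0.71 ± 0.26 in Keap1-KD mice (limma adjusted p = 1). Between Keap1-HKO and Keap1-KD mice it was 1.26 ± 0.26, at the edge of the threshold (limma adjusted p = 0.0501). With the replicate number as a block over all 12 arrays it was called (limma adjusted p = 0.0357), though no label gives such a pairing. It was also called without wild-type replicate 1 or 2 (limma adjusted p = 0.0476 and 0.0348).

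Gsta3, the alpha-class transferase that detoxifies aflatoxin epoxide in mice, varied far less. Its log2 intensity was 14.28, 14.13 and 14.26 in Nrf2-null and 14.73, 14.55 and 14.66 in wild-type livers, without overlap. The Keap1-KD (14.82, 14.85 and 14.62) and Keap1-HKO livers (14.96, 14.63 and 14.76) overlapped the wild-type livers. The difference of -0.43 ± 0.13 in Nrf2-null mice did not pass the limma test (adjusted p = 0.363) but was called by Duncan's test on either scale. The difference in Keap1-HKO mice was 0.13 with an interval from -0.15 to 0.42. A second Gsta3 probe set gave -0.57 in Nrf2-null and 0.33 in Keap1-HKO mice (limma adjusted p over all probe sets = 0.165 and 0.189). On this second set the Keap1-HKO livers (13.17 to 13.26) lay above the wild-type livers (12.67 to 12.99), with an interval from 0.05 to 0.61. The first set lay 1.60 to 2.62 under the highest value on its array, and compression there was not tested.

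Of the theta class, which acts on small halogenated molecules and sulfate esters, none of the 3 members passed the limma test in any comparison, although Gstt3 and Gstt2 had an unadjusted p of 0.00526 and 0.0433 in Keap1-HKO mice and Duncan's multiple range test called Gstt3 there. Gstt3 came nearest, with 7.61, 7.22 and 7.33 in Nrf2-null, 7.99, 7.10 and 8.04 in wild-type, 9.18, 7.41 and 7.98 in Keap1-KD and 9.89, 8.67 and 9.40 in Keap1-HKO livers. All Keap1-HKO livers lay above all wild-type livers, and the 3 Keap1-KD livers spread most, from 7.41 to 9.18. The Keap1-HKO difference was 1.61 ± 0.45 (limma adjusted p = 0.0927). It was called without Keap1-KD replicate 1 (limma adjusted p = 0.0455). Gstt2 also lay higher in every Keap1-HKO liver (10.35, 8.99 and 9.51) than in every wild-type liver (8.81, 8.17 and 8.89), by 0.996 ± 0.43 (limma adjusted p = 0.254), with Nrf2-null livers at 9.49, 8.57 and 8.72 and Keap1-KD livers at 9.86, 8.50 and 8.91. Gstt1 overlapped in all comparisons. Its livers lay between 12.27 and 13.08, and its differences from wild-type were 0.23 in Nrf2-null mice, 0.23 in Keap1-KD mice and 0.16 in Keap1-HKO mice, each with an interval that included 0.

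Gstp1, a pi-class transferase of mouse liver, lay between 15.95 and 16.19 in the 12 livers. The 3 Nrf2-null livers (15.95, 15.96 and 15.97) were below the 3 wild-type livers (16.07, 16.03 and 16.01), yet the difference was -0.07 with an interval from -0.30 to 0.15. In Keap1-HKO mice it was 0.09, with an interval from -0.13 to 0.32. The Gstp1 signal was 0.392 to 0.789 log2 units under the highest value on its array, and whether it was compressed near the top of the scale was not tested.

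Gsto1 belongs to the omega class, which reduces dehydroascorbate and methylated arsenicals. Its log2 intensity was 12.50, 12.03 and 12.08 in Nrf2-null, 12.49, 12.14 and 12.23 in wild-type, 12.43, 12.39 and 12.55 in Keap1-KD and 12.99, 12.87 and 12.73 in Keap1-HKO livers. The Keap1-HKO livers stood above all others. Their difference from wild-type was 0.57 ± 0.16 (limma adjusted p = 0.0825), and 0.83 on a second probe set (limma adjusted p over all probe sets = 0.0625). Without Nrf2-null replicate 1, which enters only through the shared estimate of spread, Gsto1 was called (limma adjusted p = 0.0431), as it was without both that array and Keap1-HKO replicate 1 (limma adjusted p = 0.0281) and by Duncan's test on either scale.

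The microsomal transferases parted from each other. Mgst3, which also has peroxidase activity and can make leukotriene C4, was 8.23, 7.58 and 8.40 in Nrf2-null, 8.34, 7.43 and 7.70 in wild-type, 8.68, 8.03 and 8.02 in Keap1-KD and 10.98, 9.71 and 10.17 in Keap1-HKO livers. The first 3 genotypes overlapped, and the Keap1-HKO livers lay above them all. Mgst3 rose by 2.46 ± 0.37 on the log2 scale in Keap1-HKO mice, or 5.51-fold (limma adjusted p = 0.00481), whereas the Nrf2-null difference was 0.24 with an interval from -0.57 to 1.06. It was also 2.04 ± 0.37 higher in Keap1-HKO than in Keap1-KD mice (limma adjusted p = 0.0262). That call ended without wild-type replicate 3, Keap1-KD replicate 1, 2 or 3, or Keap1-HKO replicate 3 (limma adjusted p = 0.0534, 0.0527, 0.115, 0.122 and 0.0715). With the replicate block, a pairing that no label gives, the limma adjusted p was 0.00165. Mgst1, the abundant glutathione transferase of the endoplasmic reticulum, lay between 15.55 and 15.98 throughout. Its Nrf2-null livers (15.55, 15.62 and 15.62) were below the wild-type livers (15.71, 15.86 and 15.86) by a difference of -0.21 with an interval from -0.44 to 0.03, which Duncan's test called on both scales and limma did not (adjusted p = 0.807). The Keap1-HKO difference was 0.01 with an interval from -0.22 to 0.25. Mgst1 too lay near the top of the scale, 0.718 to 1.13 under the highest value on its array.

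**Figure D2:**
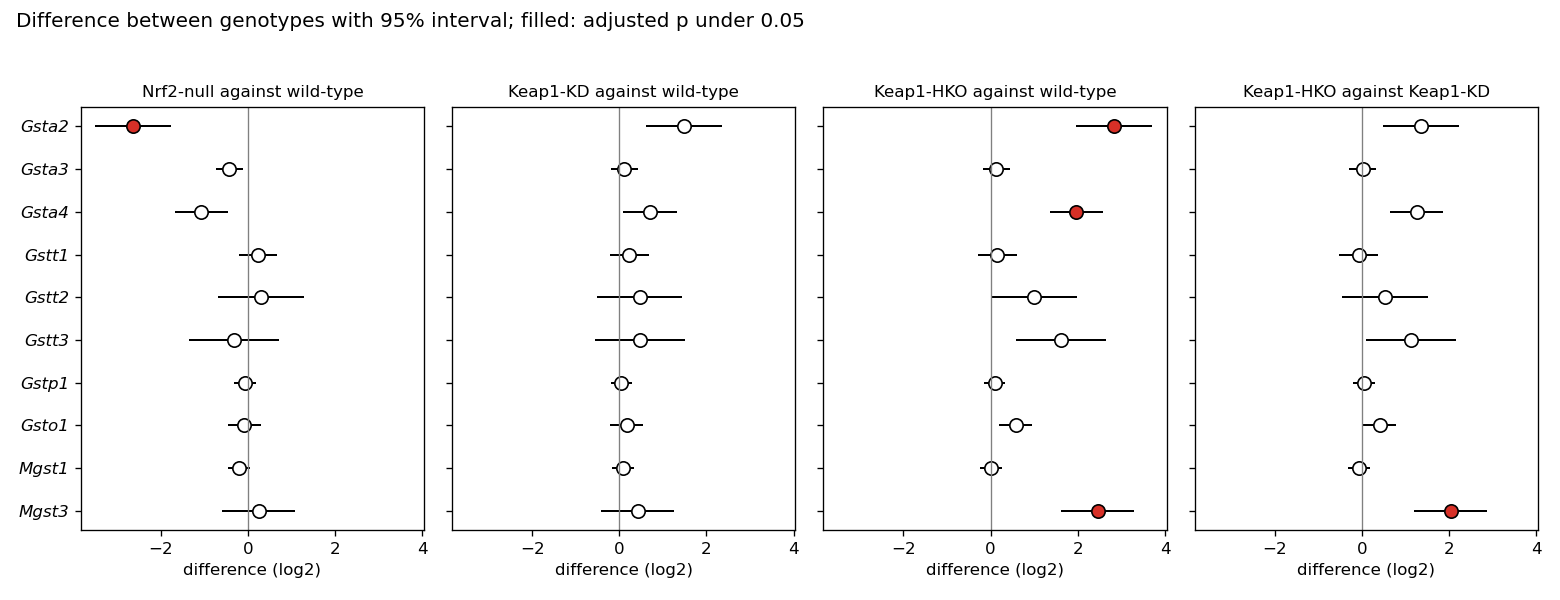
Difference in log2 intensity (x axis) for each transferase in 4 comparisons, with 95% intervals of the fit; filled points passed an adjusted p under 0.05. Gsta2 alone passed in Nrf2-null mice, and Gsta2, Gsta4 and Mgst3 passed in Keap1-HKO mice.

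Counted together, 1 of 10 transferases was called lower in Nrf2-null mice, against 0.359% of all genes, and 5 of 10 (Gsta2, Gsta3, Gsta4, Gstp1 and Mgst1) had all 3 Nrf2-null livers below all 3 wild-type livers, against 8.76% of all genes. In Keap1-KD mice 0 of 10 was called higher by limma, against 0.0512% of all genes. Gsta2 and Gsta4 had an unadjusted p under 0.05 there, and Duncan's multiple range test called both on log2 values. Neither measure was adjusted across genes, and neither has a share of all genes to set beside it. The livers of 1 of 10 (Gsta2) did not overlap, against 7.02% of all genes. In Keap1-HKO mice 3 of 10 were called higher, against 2.1% of all genes, and 6 of 10 (Gsta2, Gsta4, Gstt2, Gstt3, Gsto1 and Mgst3) did not overlap wild-type, against 12.7%. Between Keap1-HKO and Keap1-KD mice 1 of 10 was called higher, against 0.786%, and 4 of 10 (Gsta2, Gsta4, Gsto1 and Mgst3) did not overlap, against 9.22%. The median difference of the 10 members was -0.15 in Nrf2-null mice, 0.33 in Keap1-KD mice and 0.79 in Keap1-HKO mice, beside medians over all genes of 0.02, -0.01 and -0.01. The 3 comparisons with wild-type share the same 3 control livers.

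The order of the genotype means ran from Nrf2-null through wild-type and Keap1-KD to Keap1-HKO for 6 of 10 members (Gsta2, Gsta3, Gsta4, Gstt3, Gstp1 and Gsto1) and for 8.23% of all genes. Neighbours in that order did not all differ: of these 6, Gsta2 alone was free of overlap at all 3 steps. Single livers moved together across the members. Wild-type replicate 2, which carried muscle transcripts, was the lowest wild-type liver for 8 of 10 members and for 41.1% of all genes. Keap1-HKO replicate 2, which carried pancreas and muscle transcripts, was the lowest of its genotype for 9 of 10 and for 43.5% of all genes. The part of these transcripts in the members' values was not tested. Without Keap1-HKO replicates 2 and 3, left out after the data were seen, the Keap1-HKO group is replicate 1 alone, assumed to vary like the other genotypes. That liver deviated most from its genotype (0.785) and was its highest for 7 of 10 members (Gsta3, Gsta4, Gstt1, Gstt2, Gstt3, Gsto1 and Mgst3), so the larger differences there rest on it. Gsta2, Gsta4 and Mgst3 were called with differences of 2.93, 2.19 and 3.15, and Gstt2, Gstt3 and Gsto1 were called as well (limma adjusted p = 0.0303, 0.0209 and 0.0278).

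Gsta2 and Mgst3 were set against each other within each liver, a pair chosen after their values were seen. Gsta2 minus Mgst3 was 1.26, 2.19 and 1.23 in Nrf2-null, 4.52, 3.98 and 4.80 in wild-type, 5.81, 5.29 and 5.38 in Keap1-KD and 4.22, 5.17 and 5.02 in Keap1-HKO livers. The Nrf2-null livers lay below all others and the Keap1-KD livers above all others. The mean difference from wild-type was -2.87 in Nrf2-null mice, 1.06 in Keap1-KD mice and 0.37 in Keap1-HKO mice and that of Keap1-HKO from Keap1-KD mice was -0.69, given as a description with no test. The levels of 2 probe sets are not comparable, so only the change of this difference between genotypes is meaningful.

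**Figure D3:**
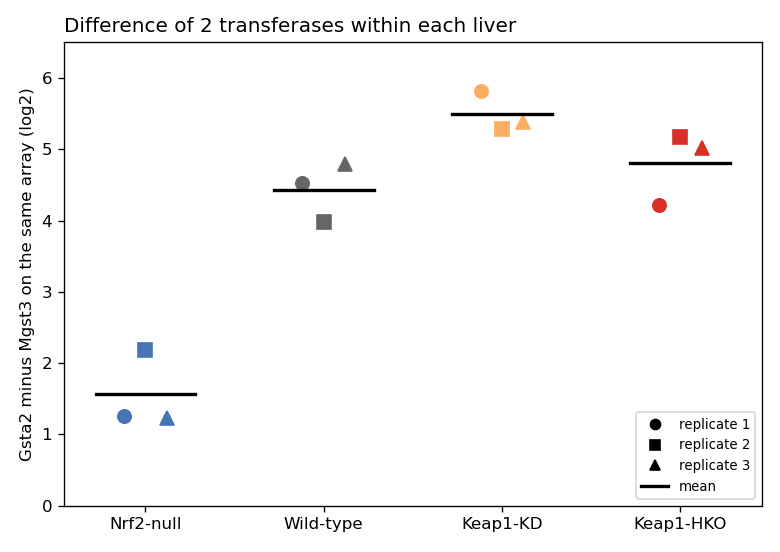
Gsta2 minus Mgst3 in log2 units within each liver by genotype; symbols are replicates and bars means. The Nrf2-null livers lie between 1.23 and 2.19, the wild-type livers between 3.98 and 4.80, and the Keap1-HKO livers overlap the wild-type livers.

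The genes whose pattern over the 12 livers was most like that of a called transferase were mu-class transferases in the case of Gsta2 (Gstm3, Pearson r = 0.993, and Gstm1, r = 0.987). For Gsta4 they were Entpd5 (r = 0.979) and Gstm3 (r = 0.9753), and for Mgst3 they were the heme transporter Slc48a1 (r = 0.977) and Plekhb1 (r = 0.970). These values describe 12 arrays that share 4 genotypes.

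Beside the 10 members, 11 of 21 genes listed as other transferases were measured. The 11 include Clic4, which is not a glutathione transferase. Of all genes, 2.1% were called higher and 1.84% lower in Keap1-HKO mice. There, 4 of the 11 were called higher: Gstm3 (17.8-fold), Gstm4 (9.50-fold), Gstm1 (6.08-fold) and Gstm2 (3.91-fold), all of the mu class, to which 7 of the 11 belong. In Nrf2-null mice 2 were called lower, Gstm3 (-3.63 on the log2 scale) and Gstm1 (-2.18). Of 8 measured genes of glutathione supply, 3 were called higher in Keap1-HKO mice: Gclc, the catalytic subunit of the rate-limiting ligase (2.91-fold), Gsr, which reduces glutathione disulfide (2.16-fold), and Gss, glutathione synthetase (1.92-fold). Cbs, of the transsulfuration route to cysteine, was called lower by -1.02 on the log2 scale. Gclm, the modifier subunit of the ligase, was not called in Keap1-HKO mice (1.055-fold, limma adjusted p = 0.778), nor were Cth, Glrx and Slc3a2. Of 16 genes listed for the mercapturate pathway, which trims conjugates for excretion, 10 were measured, and Ggt1, Dpep1 and Anpep were not. The measured genes include Chac1, Chac2 and Ggct, which do not trim conjugates. Of the 10, 1 was called in Keap1-HKO mice, Nat8f2, and it was lower (-0.89). The other 9 did not pass and lay on both sides of 0, from -1.63 (Chac2) to 0.43 (Chac1). Of 4 measured efflux transporters of conjugates, Abcc4 (at least 42.0-fold, its wild-type mean of 5.25 counted as the floor), Abcc3 (3.57-fold) and Abcc2 (1.64-fold) were called higher in Keap1-HKO mice and Abcc6 (0.986-fold) was not. Abcc4 was also called higher in Keap1-KD mice (mean 6.71, limma adjusted p = 0.0108), and Abcc3 was called lower in Nrf2-null mice (-2.90 on the log2 scale).

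**Figure D4:**
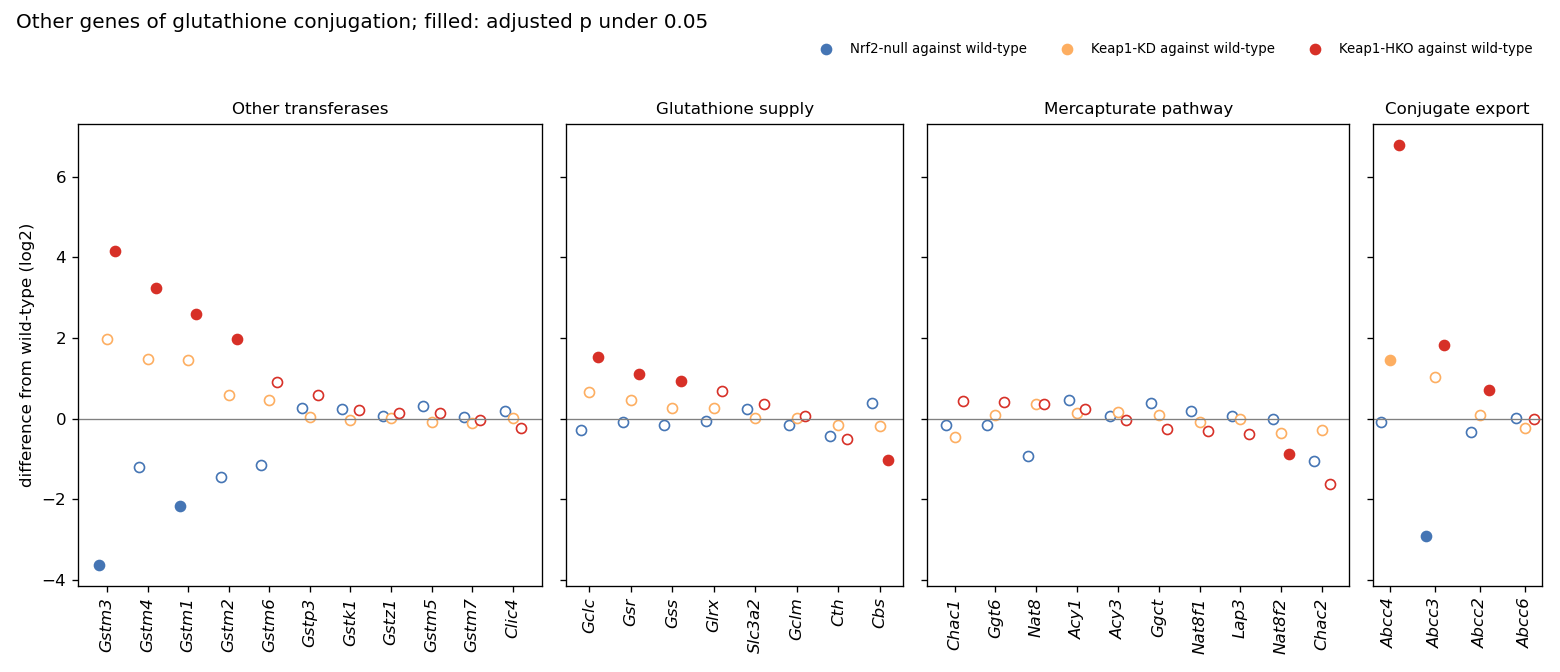
Difference from wild-type in log2 units for other genes of glutathione conjugation, ordered within each list by the Keap1-HKO difference; colours are genotypes and filled points passed an adjusted p under 0.05. Gstm3, Gstm4, Gstm1 and Gstm2 passed in Keap1-HKO mice among other transferases, and Nat8f2, which was lower, in the mercapturate pathway. Differences are plotted as fitted, also where a mean lies under the floor, as for Abcc4 in wild-type mice.

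Of the liver's other cells, 5 of 8 Kupffer cell and 4 of 6 stellate cell markers were measured and none was called, while 0 of 7 cholangiocyte markers were in the table. The median stellate marker differed from wild-type by -0.37 in Nrf2-null mice, -0.70 in Keap1-KD mice and -0.92 in Keap1-HKO mice, and the median Kupffer marker by -0.13, -0.10 and -0.14. Of 4 red blood cell markers 1, Alas2, was measured, and it was called lower in Keap1-HKO mice (-1.42). Their part in the members' values was not tested.

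**Figure D5:**
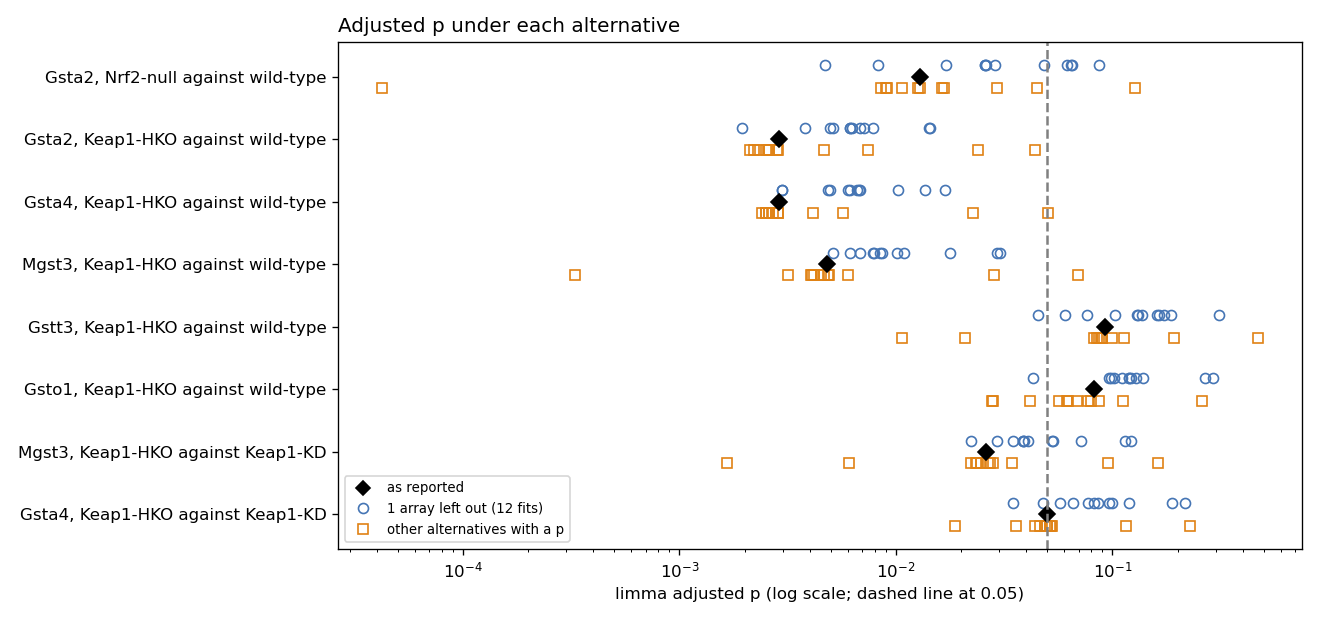
Limma adjusted p (log axis) of 8 results under each alternative: diamonds as reported, circles with 1 array left out in turn, squares under other settings, with the dashed line at the threshold of 0.05. Gsta2 in Keap1-HKO mice stayed under it in all 24 alternatives with an adjusted p, and Gsta2 in Nrf2-null mice in 19 of 24.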

How the data were processed

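Liver RNA of 4 genotypes was hybridized to individual arrays. The authors normalized the scans with gcRMA, log2 transformed them and dropped probe sets that reached an intensity of 100 in no group, and the deposited table holds these log2 values for 9622 probe sets. All 10 members lay above that floor in every genotype. Genes were named from GEO's platform annotation, which can be old: 8554 probe sets had 1 symbol, 371 several and 697 none. The probe set with the highest mean stood for each of 5856 genes.

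One limma fit (version 3.58.1, R 4.3.3) over the 12 arrays gave each comparison, with Benjamini-Hochberg adjustment over all genes and a call at an adjusted p under 0.05. The number of arrays limits precision, with 8 residual degrees of freedom, and p-values measure the spread between mice. The code was tested on simulated data.

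The members, gene lists and motifs were chosen with earlier results of these data known. Named genes were all members, Nfe2l2, Keap1 and Nqo1, up to 4 genes per list with the lowest adjusted p in Keap1-HKO mice, and the 2 genes best correlated with each called member. Same-numbered Keap1-HKO and Keap1-KD arrays deviated together only weakly (correlations 0.215, 0.165 and 0.105). Those of Keap1-HKO and wild-type did so for replicates 1 and 2 (0.333 and 0.394) but not for replicate 3 (-0.157). No label gives a pairing and these correlations do not establish one, so the replicate block is an alternative only. Promoters came from RefSeq (GRCm38.p6). Alternatives covered the methods' Duncan's test, weights, trend, block, probe set choice, filters, scaling and arrays left out. Duncan's test was applied to the members only and was not adjusted across genes.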

Additional observations from a re-analysis of the deposited data

How the results depend on the processing

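Gsta2 in Keap1-HKO mice was called in all 24 alternatives with an adjusted p, and Gsta4 and Mgst3 in 23, the exception being a fit on the 2 genotypes alone (limma adjusted p = 0.0506 and 0.0694). Duncan's test was run on the 10 members alone, without adjustment across genes, so its counts are not comparable with those of limma. The counts of members that follow have no share of all genes beside them, so they show only how calls move with the setting. Members called lower in Nrf2-null mice numbered 4 by Duncan's test on log2 values and with array weights, whose estimate stopped short of its convergence tolerance and is approximate (Gsta2, Gsta3, Gsta4 and Mgst1 in both), 2 by Duncan's test on un-logged values (Gsta3 and Mgst1, without Gsta2), 0 with 2 genotypes alone, and 0 to 1 with 1 array left out. Those higher in Keap1-KD mice numbered 2, 1 and 1 by Duncan's test on log2 values, on un-logged values and with array weights. Those higher in Keap1-HKO mice numbered 5 by either Duncan's test, 1 with 2 genotypes alone and 6 with the replicate block. No label gives the pairing of that block. Leaving out the arrays with pancreas transcripts, chosen after seeing the data, leaves Keap1-HKO replicate 1 alone, so its count is left out here. That liver deviated most from its genotype and was its highest for 7 of 10 members. Those higher in Keap1-HKO than in Keap1-KD mice numbered 4 and 5 by Duncan's tests and 0 with array weights or 2 genotypes alone. They numbered 0 to 2 with 1 array left out. With the trend, replicate block, filter at 200, floor at 100, second quantile normalization or both outlying arrays left out they numbered 2.

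Signs turned only in differences that were not called. The approximate array weights gave -0.0944 for Gstt2 in Nrf2-null, -0.00914, -0.195 and -0.0470 for Gsta3, Gstt1 and Mgst1 in Keap1-HKO mice, and -0.0414 and -0.000907 for Gsta3 and Gstp1 in Keap1-HKO against Keap1-KD mice. In the latter comparison Gsta3 was -0.0661 without both outlying arrays and Gstt1 0.0681 without the pancreas arrays. With 1 array left out, Gsto1 in Nrf2-null mice ranged from -0.229 to 0.0196, Gstt3 in Keap1-KD from -0.0175 to 0.864, Mgst1 in Keap1-HKO from -0.0364 to 0.0377, and against Keap1-KD Gsta3 from -0.0661 to 0.0959 and Gstt1 from -0.215 to 0.0589. The causes were not tested.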
